A study of Rattus norvegicus with 6 samples.

Results

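The 10 microRNAs (miRNAs) described here mark epithelial, sensory and endocrine cells. They are the miR-200 family (rno-miR-200a-3p, rno-miR-200b-3p, rno-miR-200c-3p, rno-miR-141-3p and rno-miR-429), the miR-183 cluster (rno-miR-182, rno-miR-183-5p and rno-miR-96-5p), rno-miR-203a-3p and rno-miR-375-3p, and the rat prefix rno- is dropped from here on. They were taken by name from a table of 763 mature miRNAs, and all 10 were found in it. The measurement was small RNA sequencing of serum exosomes, small vesicles that cells release. The donors were male adult rats of the Sprague-Dawley strain, 9 to 10 weeks old and 250 to 280 g in weight, and all were under pentobarbital anesthesia when blood was taken from the left ventricle. IPC stands for ischemic preconditioning, and this group has 3 samples. Its rats had the left anterior descending coronary artery blocked for 5 min and then released for 5 min, 3 times over, before the blood was drawn. The control group also has 3 samples, from rats bled without this procedure, and no sham surgery is described for them. Whether each sample is a different rat is not stated, so p-values reflect sample-to-sample spread that could be technical. The comparison asks which exosomal miRNAs differ after preconditioning. Values of a group are given in the order of replicates 1, 2 and 3.

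The miR-200 family keeps epithelial cells epithelial by repressing the transcription factors Zeb1 and Zeb2, which switch off E-cadherin. Its genes lie in a pair of clusters, miR-200b with miR-200a and miR-429, and miR-200c with miR-141. miR-182, miR-96 and miR-183 come from a shared transcript that is abundant in photoreceptors, hair cells and other sensory cells. miR-203a is made in the epidermis, where it limits stem cell renewal through p63, and miR-375 is abundant in pancreatic islets and in neuroendocrine and gut epithelial cells. A miRNA chooses its target mRNAs mainly by its seed, bases 2 to 8, so miRNAs that share a seed share most predicted targets.

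Mature sequences were found for 7 of the 10 members in RefSeq (build GRCr8, the rat assembly of that table). Capitals mark the seed, which no printed member shares with another. miR-200a-3p, miR-200b-3p and miR-429 are named only, so the seeds they share with miR-141-3p or miR-200c-3p are background and cannot be seen here.
miR-200c-3p: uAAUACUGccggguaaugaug
miR-141-3p: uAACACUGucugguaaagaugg
miR-182: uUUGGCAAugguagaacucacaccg
miR-96-5p: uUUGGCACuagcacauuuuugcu
miR-183-5p: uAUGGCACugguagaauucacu
miR-203a-3p: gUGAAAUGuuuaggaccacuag
miR-375-3p: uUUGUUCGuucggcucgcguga
Positions are counted from 1 at the 5′ end. miR-200c-3p and miR-141-3p lie in the same cluster, at chr4:159209969-159209989 and chr4:159209540-159209561 on the minus strand of GRCr8, and their seeds differ by the substitution U4C. miR-182 (chr4:59752249-59752273), miR-96-5p (chr4:59755901-59755923) and miR-183-5p (chr4:59756106-59756127) are also on the minus strand, in a cluster of 3908 bases. The seeds of miR-182 and miR-96-5p differ by A8C, and those of miR-183-5p and miR-96-5p by A2U. miR-203a-3p lies at chr6:137020756-137020777 on the plus strand and miR-375-3p at chr9:83906591-83906612 on the minus strand. The miR-429, miR-200a and miR-200b hairpins lie within 1908 bases of chromosome 5. Over the whole mature sequence, miR-200c-3p and miR-141-3p were identical at 17 of 21 positions and miR-182 and miR-183-5p at 18 of 22, while miR-96-5p matched miR-182 at 12 of 23 and miR-183-5p at 13 of 22. How the alignment divided reads between close relatives was not stated.

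The deposited values are normalised and not whole counts, and whole counts were recovered from them. Total counts per library were 319285 to 762927 in IPC samples and 111048 to 152343 in controls, so no control library was as deep as any IPC library, and depth and group cannot be told apart. Levels are given in CPM, the count per 1000000 counts of effective library size, which is the total count times a scaling factor recovered from the values. The table has counts for 480 miRNAs, and 226 were abundant enough to be tested (10 counts or more, taken at the median library size, in 3 or more libraries), among them 6 of the 10 members. Control replicate 2 was often the highest control, with a normalised value above both others for 103 of the 226 miRNAs (45.6%). That library held 38.8% of all control counts and 51.4% of the summed control effective size. Markers of blood cells were present in each library. Red-cell miRNAs took 5.32% ± 0.435 of counts in IPC samples and 5.63% ± 1.91 in controls, and leukocyte miRNAs took 1.49% ± 0.503 in IPC samples and 0.667% ± 0.332 in controls (SD, n = 3 each). miR-486 held most red-cell counts, 80486 of 92499 after IPC and 17777 of 22305 in controls. Of the 4 red-cell miRNAs, 2 had a positive log2 fold change of IPC over control and 2 a negative one. miR-142-5p held most leukocyte counts, 15975 of 23723 after IPC and 1904 of 2740 in controls. miR-142-3p was at 387 CPM after IPC and 393 CPM in controls, and 3 of the 4 tested leukocyte miRNAs had a positive log2 fold change. The part of blood cells in the members' values was not tested.

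All 10 members were detected, with at least 1 count in each IPC library, and 6, 8 and 6 of them had a count in the control libraries. With each library scaled to the lowest depth, the number of members with at least 3 counts was 6, 7 and 7 after IPC, against 6, 8 and 4 in controls. None of the 6 tested members passed an adjusted p of 0.05 (limma, Benjamini-Hochberg over 226 miRNAs, adjusted p = 0.535 to 0.998), against 0.0% of the 226 called higher and 0.0% called lower. None had an unadjusted p below 0.05 either, where 20 of the tested miRNAs (8.85%) were higher and 4 (1.77%) lower by that rule. limma-voom, run on recovered counts, called 0 of the 226 as well. For none of the 6 were all IPC libraries above or all below the controls, against 12.4% of the 226 above and 1.33% below. Log2 fold changes of IPC over control were positive for 3 members and negative for 3, with a median of 0.02 against 0.38 over all 226. Together the members held 0.203% ± 0.0130 of all counts in IPC samples and 0.201% ± 0.180 in controls (SD, n = 3 each). In CPM the sum was 2095, 2273 and 1736 after IPC, against 1138, 2895 and 1159 in controls. The IPC samples thus lay between control replicate 2 above and the other controls below. In such bulk samples, fewer vesicles of a cell type and fewer copies of a miRNA per vesicle cannot be told apart.

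**Figure D1:**
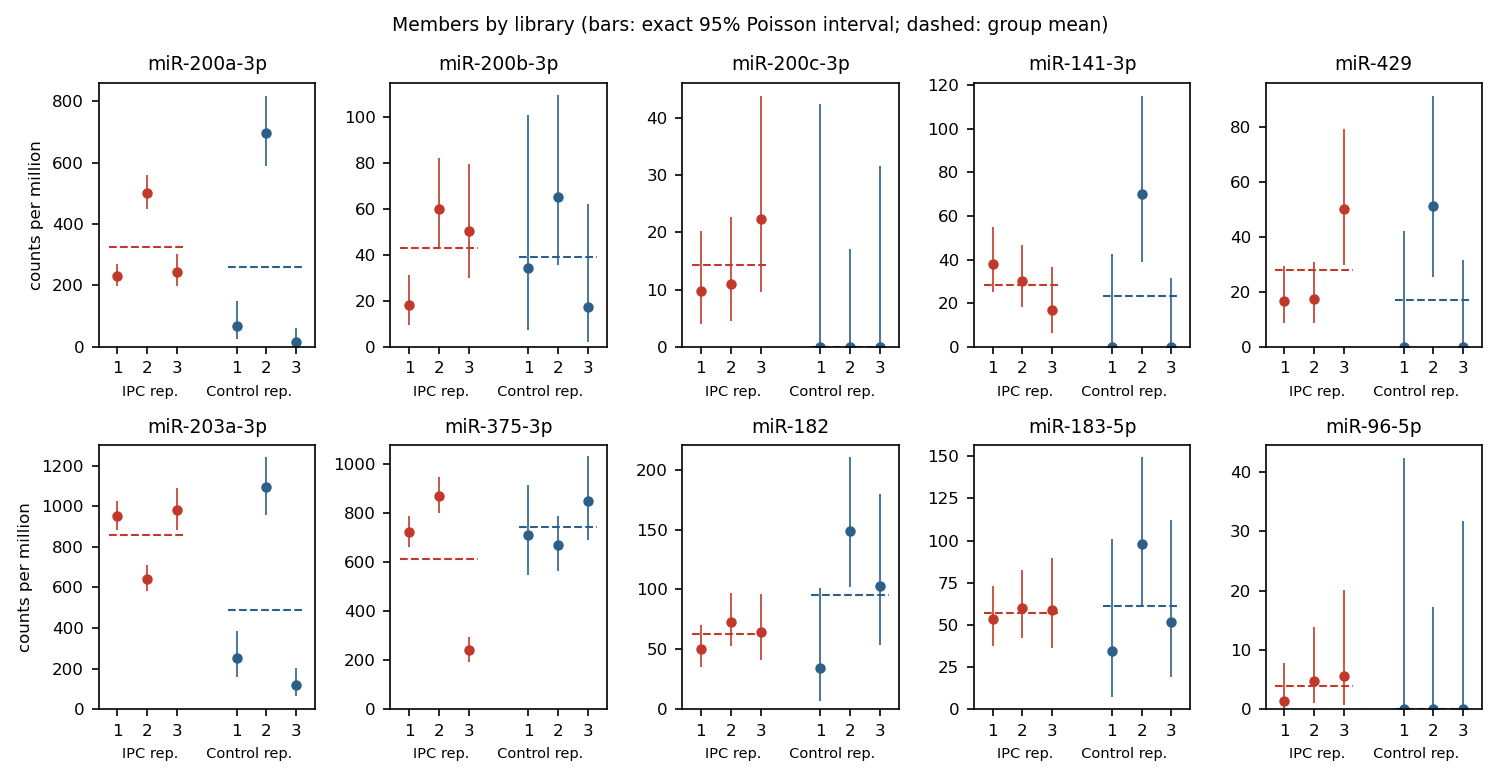
Level of each of the 10 members in each library, in CPM, IPC replicates left and control replicates right of each panel. Points are libraries, bars exact 95% Poisson intervals (counting error only) and dashed lines group means; control replicate 2 is the highest control for all members with control counts but miR-375-3p.

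The miR-200 family was present at very unequal levels, and in the controls its counts lay mostly in replicate 2. miR-200a-3p, the most abundant of the 5, had 165, 319 and 88 counts in the IPC libraries, against 6, 150 and 2 in the control libraries. These are 231, 503 and 245 CPM after IPC and 69.0, 698 and 17.2 CPM in controls. Control replicate 2 was above each IPC library and the other controls were below each, so the groups overlapped. The exact 95% Poisson interval was 591 to 819 CPM in control replicate 2, against 25.3 to 150 CPM and 2.08 to 62.0 CPM in control replicates 1 and 3, and it covers counting error only, as do all such intervals here. Mean levels were 326 ± 153 CPM after IPC and 261 ± 379 CPM in controls (SD, n = 3 each). The log2 fold change, on the log2(normalised value + 1) scale, was 1.51 (SE 1.09, 95% interval -0.87 to 3.89; limma adjusted p = 0.562).

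Without control replicate 2, miR-200a-3p was called higher after IPC, with a log2 fold change of 2.85 (SE 0.82; limma adjusted p = 0.0268). In that fit 12.8% of the 226 miRNAs were called higher and 3.98% lower, so a call there was common. Without control replicate 3 the log2 fold change was 0.41, and adjusted p-values ran from 0.0268 to 0.978 over all alternatives. The distance of control replicate 2 from the mean of the other controls was 4.03 for miR-200a-3p on the same log2 scale, and 97.8% of the tested miRNAs had a lower value. The median over the 226 was 0.34. Heart and skeletal muscle miRNAs (6 markers of striated muscle) took 1.42%, 8.44% and 4.24% of counts after IPC, against 0.285%, 1.83% and 0.216% in controls, so their control share was also highest in replicate 2. Their part in this result was not tested.

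miR-200b-3p, encoded beside miR-200a, had 13, 38 and 18 counts after IPC, against 3, 14 and 2 in controls. Its levels were 42.8 ± 21.8 CPM after IPC and 38.9 ± 24.3 CPM in controls (SD, n = 3 each), and the groups overlapped. The log2 fold change was 0.07 (SE 0.84; limma adjusted p = 0.998), and it was negative with median-of-ratios scaling and with limma-voom (-0.07 each). Counts of miR-200a-3p were 12.7, 8.39 and 4.89 times those of miR-200b-3p after IPC. In controls the same ratio was 2.0, 10.7 and 1.0, and the first and last of these rest on 2 to 6 counts. Over all libraries miR-200a-3p had 730 counts and miR-200b-3p 88, although both come from neighbouring hairpins.

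The other 3 family members lay below the abundance filter and were compared by exact permutation tests on CPM, whose smallest two-sided p is 0.1 with 3 against 3 samples. These tests, 4 with that of miR-96-5p, were not adjusted. miR-429, which shares the seed of miR-200b and miR-200c, had 12, 11 and 18 counts after IPC, against 0, 11 and 0 in controls. Its levels were 28.1 ± 19.1 CPM after IPC and 17.1 ± 29.6 CPM in controls (SD, n = 3 each; exact permutation p = 0.6). miR-141-3p, which shares the seed of miR-200a, had 27, 19 and 6 counts after IPC and 0, 15 and 0 in controls. Its levels were 28.2 ± 10.7 CPM after IPC and 23.3 ± 40.3 CPM in controls (SD, n = 3 each; exact permutation p = 1.0). Both were thus counted in control replicate 2, at 51.2 and 69.8 CPM, and in no other control. A count in control replicate 2 and in each IPC library, with 0 in control replicates 1 and 3, was found for 11.0% of the 254 miRNAs with a count that lay below the filter. Control replicates 1 and 3 were grouped by their 0 counts, so this split followed the data. Combined, they allow up to 3 counts, or 14.7 CPM. Levels after IPC were 37.8, 30.0 and 16.7 CPM of miR-141-3p and 16.8, 17.3 and 50.2 CPM of miR-429. Taken singly, the exact Poisson intervals of control replicates 1 and 3 ended at 42.4 and 31.7 CPM. The IPC intervals began at 24.9, 18.0 and 6.14 CPM for miR-141-3p and at 8.69, 8.66 and 29.7 CPM for miR-429. Each thus overlapped the intervals of both these controls.

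miR-200c-3p, the partner of miR-141 in its cluster, was the family member counted in IPC samples alone, with 7, 7 and 8 counts in the IPC libraries, against 0 in each control. Its level was 14.4 ± 6.88 CPM after IPC (SD, n = 3). Pooled over the IPC libraries its level was 12.9 CPM. The 0 counts in all controls allow up to 3 counts in the group, or 7.17 CPM. The ratio of these levels, 1.80, is called the bound here. It leaves out counting error of the IPC counts and spread between libraries. By library, exact Poisson intervals ended at 42.4, 17.2 and 31.7 CPM in controls. IPC levels were 9.81, 11.0 and 22.3 CPM, and the interval of the last began at 9.62 CPM. A higher level after IPC was thus not established. The bound also rests on control replicate 2: without it the limit is 14.7 CPM, above the pooled IPC level, and the bound falls to 0.874. The exact permutation p was 0.1, the smallest possible. Of the 254 miRNAs below the filter, 5.12% had this split of 0 control counts and a count in each IPC library. Scaled to the depth of the shallowest library, 111048 counts, the IPC libraries would hold 1.02, 1.18 and 2.78 counts of it, each under the floor of 3. The authors' deposited table gives miR-200c-3p a log2 fold change of 5.35 (authors' unadjusted p = 0.0364), a fitted value against controls at 0 and no bound. The same table gives 0.30 for miR-200a-3p, 0.07 for miR-200b-3p, 0.12 for miR-141-3p and 0.49 for miR-429 (authors' unadjusted p = 0.769, 0.961, 0.908 and 0.645).

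Summed over the 5 members, the family was at 314, 621 and 385 CPM after IPC, against 103, 884 and 34.3 CPM in controls. The sums rest on 756 IPC counts and 203 control counts, of which control replicate 2 held 190. Of all control counts, that library held 38.8%. By seed, miR-200a and miR-141 together averaged 355 ± 154 CPM after IPC and 285 ± 419 CPM in controls. miR-200b, miR-200c and miR-429 together averaged 85.2 ± 39.0 CPM after IPC and 56.0 ± 53.0 CPM in controls (SD, n = 3 each). Each seed group overlapped between IPC and control samples, and the seed of miR-200a was the more abundant in both groups by mean CPM.

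**Figure D2:**
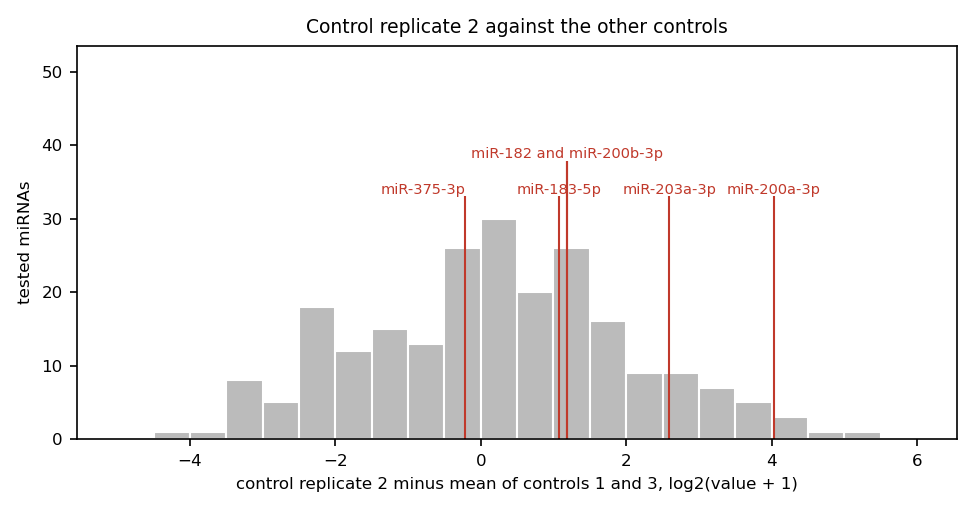
Histogram over the 226 tested miRNAs of the normalised value in control replicate 2 minus the mean of control replicates 1 and 3, on the log2(value + 1) scale, with the 6 tested members as red lines. miR-200a-3p at 4.03 and miR-203a-3p at 2.59 lie far to the right of the median of 0.34, and miR-375-3p at -0.22 lies below it.

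miR-203a-3p, the epidermal member, was among the 2 most abundant, at rank 83 of 480 by mean CPM. It had 679, 408 and 353 counts after IPC, against 22, 235 and 14 in controls. In CPM these were 952, 643 and 984 after IPC and 253, 1094 and 120 in controls. Control replicate 2 again lay above each IPC library, and control replicates 1 and 3 below each. Its exact Poisson interval, 958 to 1243 CPM, overlapped those of IPC replicates 1 and 3 (881 to 1026 and 884 to 1092 CPM). The log2 fold change of miR-203a-3p was 1.36 (SE 0.82, 95% interval -0.44 to 3.15, limma adjusted p = 0.535). It was 2.22 and called higher without control replicate 2 (limma adjusted p = 0.0276). In that fit 12.8% of the 226 miRNAs were called higher and 3.98% lower. Without control replicate 3 the log2 fold change was 0.67, and adjusted p-values ran from 0.0276 to 0.978 over all alternatives. The authors' deposited table gives 0.80 (authors' unadjusted p = 0.345). The SD of its log2 values was 1.58 in controls, above that of 77.4% of tested miRNAs, and 0.34 in IPC samples, above that of 18.6%. The miR-203b hairpin lies on the opposite strand of the same site, and it is named here after its values were seen. miR-203b-3p had 17 counts in all IPC libraries and 3 in all controls, against 1440 and 271 of miR-203a-3p.

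miR-375-3p, the islet and neuroendocrine member, was the most even of the tested members across controls. It had 517, 553 and 86 counts after IPC, against 62, 144 and 99 in controls. In CPM the levels were 725, 872 and 240 after IPC and 713, 670 and 850 in controls. IPC replicate 3 was the low library here, with an interval of 192 to 296 CPM below those of all others, and the groups overlapped. The log2 fold change was -0.47 (SE 0.70, 95% interval -2.01 to 1.06; limma adjusted p = 0.78), and it was 0.10 without IPC replicate 3. The authors' deposited table gives -0.28 (authors' unadjusted p = 0.707). The SD of its log2 values was 0.18 in controls, and 1.33% of tested miRNAs had a lower one. In IPC samples it was 1.00, above that of 77.0%. Hepatocyte miR-122-5p was also lowest in IPC replicate 3, at 0.423% of that library's counts, against 1.04% and 0.879% in IPC replicates 1 and 2, and its part in this result was not tested.

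**Figure D3:**
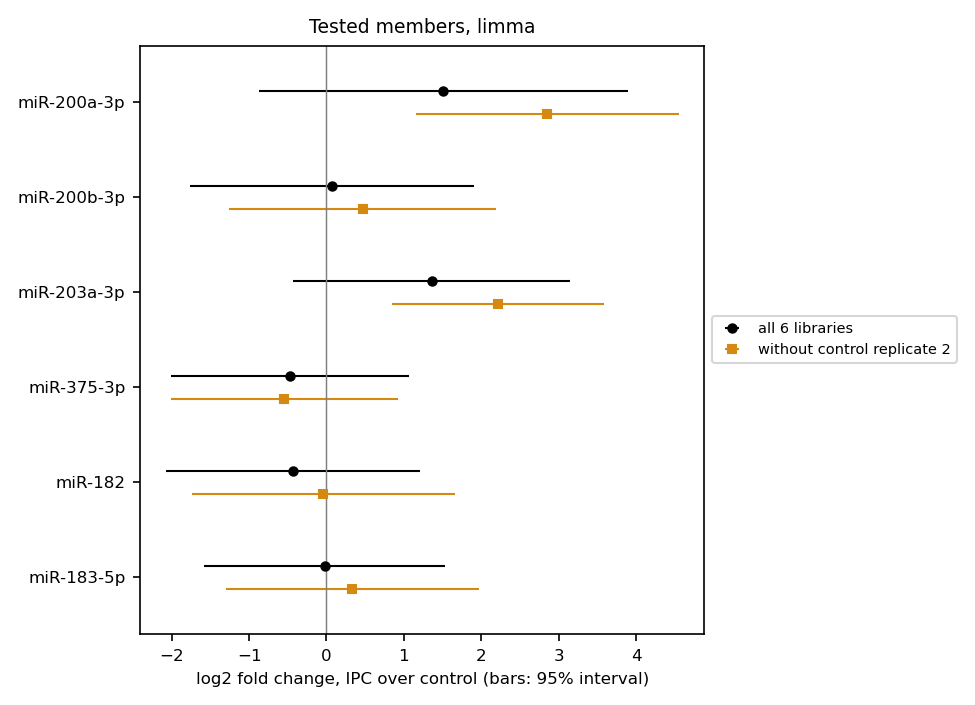
Log2 fold change of IPC over control for the 6 tested members from limma, with 95% intervals, over all 6 libraries (circles) and without control replicate 2 (squares). With all libraries each interval holds 0; without control replicate 2 those of miR-200a-3p and miR-203a-3p do not.

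The miR-183 cluster held 2 members at similar levels and 1 near the limit of detection, and none was called different between groups. miR-182 had 36, 46 and 23 counts after IPC, against 3, 32 and 12 in controls. That is 50.5, 72.5 and 64.1 CPM after IPC and 34.5, 149 and 103 CPM in controls, where the IPC samples lay within the range of the controls. For miR-182 the log2 fold change was -0.43 (SE 0.75; limma adjusted p = 0.816). miR-183-5p had 38, 38 and 21 counts after IPC and 3, 21 and 6 in controls. Its IPC levels, 57.2 ± 3.51 CPM, varied little, and control levels were 61.2 ± 32.7 CPM (SD, n = 3 each). For miR-183-5p the log2 fold change was -0.02 (SE 0.71; limma adjusted p = 0.998), with a 95% interval of -1.58 to 1.54, and it was 0.02 with total-count scaling.

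The ratio of miR-182 to miR-183-5p counts stayed between 0.947 and 1.21 in IPC libraries and between 1.0 and 2.0 in controls. Both ends of the control range rest on few counts, 3 over 3 in replicate 1 and 12 over 6 in replicate 3. miR-96-5p, the third hairpin of the cluster and the member in which seed mutations cause hearing loss in mice and humans, had 1, 3 and 2 counts in the IPC libraries, against 0 in each control. Its mean was 3.90 ± 2.21 CPM after IPC (SD, n = 3; exact permutation p = 0.1, the smallest possible). The 3 counts that 0 over the control group allow are 7.17 CPM, above that IPC mean, so no difference was detectable at this depth. Over all libraries miR-182 had 25.3 times the counts of miR-96-5p. The authors' deposited table gives log2 fold changes of -0.65 for miR-182, -0.15 for miR-183-5p and 3.52 for miR-96-5p (authors' unadjusted p = 0.436, 0.878 and 0.307), the last against controls at 0.

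In order of mean CPM over all libraries the members were miR-375-3p, miR-203a-3p, miR-200a-3p, miR-182, miR-183-5p, miR-200b-3p, miR-141-3p, miR-429, miR-200c-3p and miR-96-5p, at ranks 82, 83, 114, 181, 198, 221, 242, 248, 311 and 395. Neighbours whose order turned in at least 1 library were miR-375-3p and miR-203a-3p, miR-200a-3p and miR-182, miR-182 and miR-183-5p, miR-200b-3p and miR-141-3p, and miR-141-3p and miR-429, and those steps did not exceed the spread between samples. miR-203a-3p was above miR-200a-3p in all 6 libraries. Mature miRNAs are of nearly equal length, so counts were compared between them without scaling to length. No correction was made for other differences in how sequences are recovered, so ranks and ratios between miRNAs are of counts, not of molecules.

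The opposite arms of the member hairpins were almost absent. Of 8 such arms in the table, 2 had counts. miR-200b-5p had 3 counts in all IPC libraries and 2 in all controls, and miR-200a-5p had 1 and 0, against 69 and 19 of miR-200b-3p and 572 and 158 of miR-200a-3p. The arms of miR-200c, miR-141, miR-203a, miR-375, miR-96 and miR-183 opposite the members had no counts, which allows at most 3 counts in all IPC libraries and 3 in all controls.

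Other epithelial, endocrine and sensory miRNAs were taken from a list of 23 names, of which 20 were in the table and 15 had counts. Of these, 5 were tested, and 0 passed the adjusted threshold (limma, smallest adjusted p = 0.35). An unadjusted p below 0.05 was found for 1 of them, higher after IPC, as for 8.85% of the 226. The log2 fold change was above 0 for all 5, as for 142 of the 226, and the median was 0.61 against 0.38. These figures and the p-value below 0.05 include miR-34c-5p, whose direction was fixed by its way through the filter, so they are descriptions only. miR-34c-5p, of multiciliated epithelium, had 38, 51 and 33 counts after IPC, against 0, 7 and 2 in controls. It passed the filter through the 3 IPC libraries alone, with 0 control libraries at 34.9 CPM, so it could enter the test only by being high after IPC, and its log2 fold change of 2.23 (SE 0.90) is given as a description. With no filter the limma adjusted p was 0.39. The log2 fold change was 1.45 with a pseudocount of 5, 1.47 when control replicate 1 was left out and 2.79 without control replicate 2. miR-34b-3p, from the same transcript, lay below the filter at 21.2 ± 6.00 CPM after IPC and 17.4 ± 22.6 CPM in controls (SD, n = 3 each).

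miR-205, of stratified epithelium, was at 177 ± 63.6 CPM after IPC and 115 ± 40.2 CPM in controls, and the log2 fold change was 0.61 (SE 0.71). It did not share the pattern of miR-203a-3p, since control replicate 2 was not its highest control, at 88.4 CPM. That was the lowest value of miR-205, but its Poisson interval of 53.2 to 138 CPM overlapped that of control replicate 3 (47.2 to 169 CPM). miR-194-5p, of gut, liver and kidney epithelium, was at 156 ± 19.1 CPM after IPC and 154 ± 160 CPM in controls, and the log2 fold change was 0.52 (SE 0.86), moving to 1.33 without control replicate 2 and to -0.20 when control replicate 3 was left out. miR-192-5p, its cluster partner and the most abundant of the list, was at 3231 ± 1084 CPM after IPC and 2926 ± 633 CPM in controls, and the log2 fold change was 0.11 (SE 0.61). It turned to -0.14 with median-of-ratios scaling. miR-7a-5p, of islet cells and neurons, was at 1689 ± 1036 CPM after IPC and 1364 ± 1544 CPM in controls, and the log2 fold change was 0.78 (SE 0.88; SD and n = 3 each in these sentences). Control replicate 2 held 87.9% of its control counts, against 38.8% of all control counts. The log2 fold change moved to 1.69 without that library and to 0.13 when control replicate 3 was left out. Of the miRNAs of exocrine pancreas, miR-216a-5p and miR-216b-5p had no counts, and miR-217-5p had 3 counts in all IPC libraries and 5 in all controls.

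**Figure D4:**
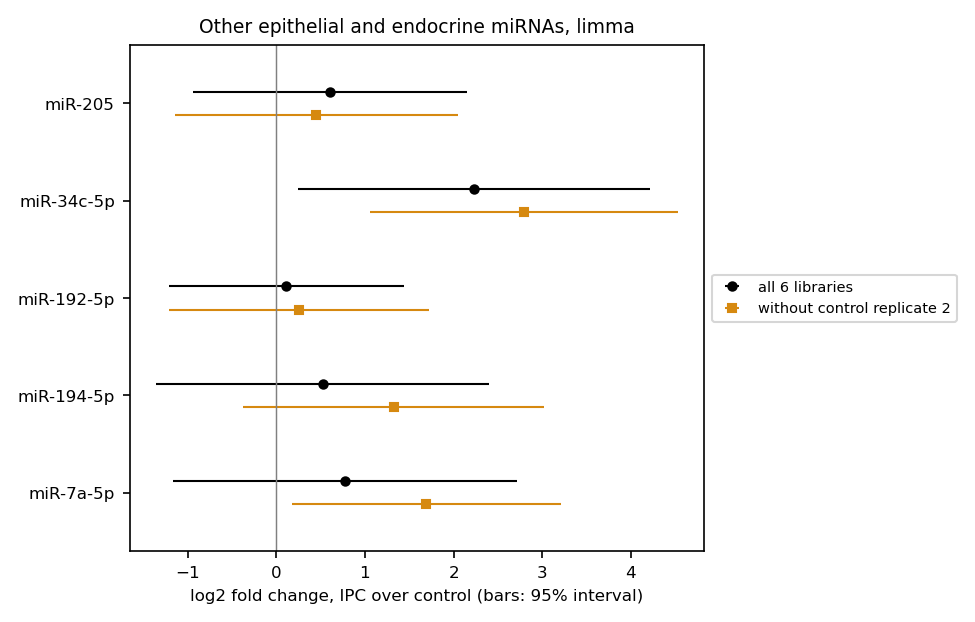
Log2 fold change of IPC over control for the 5 tested miRNAs of the other epithelial, endocrine and sensory list from limma, with 95% intervals, over all 6 libraries (circles) and without control replicate 2 (squares). With all libraries the interval of miR-34c-5p, which passed the filter through the IPC libraries alone, lies above 0 and the other 4 hold 0. Without control replicate 2 that of miR-7a-5p also lies above 0, but miR-7a-5p was not called there (limma adjusted p = 0.0916). In that fit 24.3% of the 226 tested miRNAs were higher at an unadjusted p below 0.05 (limma).

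For the 3 most abundant members, the miRNAs with the most similar pattern over the 6 libraries were found by the Euclidean distance between centred log2(value + 1) profiles, over 220 tested miRNAs that are not members. All profiles share the same libraries and depths. The nearest to miR-375-3p were miR-122-5p at 0.609, miR-221-3p at 0.891 and miR-378a-3p at 0.909, against a median distance of 2.61. The nearest to miR-203a-3p were miR-450b-5p at 0.385, miR-450a-5p at 0.645 and miR-30e-5p at 0.924 (median 3.01). The nearest to miR-200a-3p were miR-199a-3p at 1.52, miR-3559-5p at 1.79 and miR-499-5p at 1.81 (median 4.0). miR-450b-5p had 98, 70 and 70 counts after IPC, against 4, 40 and 2 in controls, the same order of controls as miR-203a-3p. miR-122-5p is made by hepatocytes and miR-499-5p by heart and slow skeletal muscle.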

How the data were processed

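Per the labels' protocols, total RNA of serum exosomes went into small RNA libraries that were read single-end for 50 bp. FastQC, BWA, edgeR and the build rn6 are named in the submitters' processing notes, with no versions or roles. The authors deposited a normalised signal per library, a log2 fold change and an unadjusted p-value per miRNA, per the file headers. That signal matches counts that were quantile-adjusted to 1 library size (265919, dispersion 0.503), a form worked out from the values. Inverting it gave 4578 of 4578 values within 0.01 of a whole count, and recomputed values differed by at most 7.0e-08 in relative terms. The 4578 include miRNAs without any count, which are whole by construction, since 480 of the 763 had a count. Where more than 1 solution was found, the one nearest to whole counts was kept.

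The test was limma 3.58.1 in R 4.3.3, with a trended, robust fit of log2(value + 1) on the group, for miRNAs with 34.9 CPM in at least 3 libraries and 15 counts in all. This understates the change of low miRNAs. P-values were adjusted over all 226 tested. The steps were tested on simulated data. Members and lists were chosen with earlier results of these data known. Named miRNAs were all members, opposite arms with counts, the 3 nearest profiles of the 3 most abundant members and, of the other list, the 6 highest by mean CPM and any at an unadjusted p below 0.05. miR-203b-3p and the exocrine pancreas miRNAs were named after their values were seen. Alternatives were the pseudocount, filter, scaling, test, replicate block and leaving out each library. Python 3.11.15 was used with pandas 2.3.3, numpy 2.4.6, matplotlib 3.10.9 and scipy 1.17.1.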

Additional observations from a re-analysis of the deposited data

How the results depend on the processing

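The count of called miRNAs was 0 with all 6 libraries, 3 of 480 with no filter beyond a count, and 2 with the replicate block, and ran from 0 to 38 with a library left out, 38 being without control replicate 2. Titles give both groups replicate numbers 1 to 3, but deviations of same-numbered libraries correlated at 0.13, -0.18 and -0.51 and 0 of the 6 libraries correlated best with their own number, so the numbers were not taken as pairs. The replicate block called no member. Median-of-ratios scaling moved the median log2 fold change of all tested miRNAs by -0.19. Over all alternatives the tested members gave 77 of 88 values with the same direction and side of the threshold, 9 with the other sign and 2 past the threshold, and the median of the tested members stayed between -0.19 and 0.46. Signs turned for miR-200b-3p (-0.072 with median-of-ratios scaling, -0.073 with limma-voom, -0.32 to 0.57 with a library left out), miR-183-5p (0.022 with total-count scaling, -0.31 to 0.34 with a library left out) and miR-375-3p (-0.82 to 0.10 with a library left out). They also turned for miR-192-5p (-0.14 with median-of-ratios scaling, -0.14 to 0.33 with a library left out) and miR-194-5p (-0.20 to 1.33 with a library left out). The cause was not tested. With a library left out miR-200a-3p ran from 0.41 to 2.85, miR-203a-3p from 0.67 to 2.22 and miR-182 from -0.97 to -0.04. Depth limits the members with few counts most in the controls, where 3 counts are 14.0 to 34.5 CPM per library. The bound for miR-200c-3p, with each library left out as an alternative chosen after seeing the data, ran from 0.874 to 2.11 and was below 1 without control replicate 2.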
